A study of Mus musculus with 8 samples.

Results

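Interferon-stimulated genes were described in microglia, the resident macrophages of the brain, that had been sorted from the mouse hypothalamus by whether or not they carried injected plasma protein. The group of genes was a list of 45, chosen by symbol for their place in the interferon response: receptors and transcription factors of the pathway, sensors of foreign nucleic acid, and antiviral effectors. Of the 45 listed genes, 43 had a row among the 35583 genes of the count table, and 39 of those passed the filter on low counts and were tested in a fit of 13277 genes. Mx1 and Mx2 are not analysed here. Oasl1, Oas2, Oas3 and Ifi44 were in the table but had too few counts to be tested.

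All mice were young and wild-type and had received dye-labelled plasma protein 20 hours earlier, so the injection is shared by both groups. RNA was sequenced in bulk by Smart-seq2, a method that copies whole transcripts from little input, in 8 libraries: 4 of plasma-positive microglia, which carried the label, and 4 of plasma-negative microglia, which did not. The age in weeks, the dose, the dye and the sorting gates are not given in the sources used here, and no label says that the libraries of a group came from separate animals. The p-values therefore measure the spread between these libraries, which may be technical. In bulk libraries, fewer cells of a type and less RNA per cell cannot be told apart, and this holds for every level below.

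Type I interferons bind a receptor made of Ifnar1 and Ifnar2. The receptor's kinases, Jak1 and Tyk2, activate Stat2, which joins Irf9 in a complex that binds a short element, the ISRE, in front of the induced genes. The products of those genes block virus entry, translation and replication, tag proteins with the ubiquitin-like protein ISG15, or feed back on the pathway. Microglia express many of these genes at a low level without infection, and microglia with a high interferon signature have been described in aged, injured and infected brains.

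Total gene counts ranged from 2963094 in plasma-negative library 4 to 21422738 in plasma-negative library 1, and the plasma-positive libraries lay between 9421708 and 20562689. Microglial marker genes were high in every library, with a summed level of 67573 to 80195 CPM (read counts scaled to a common library size, the unit of all levels below unless another is named) in the plasma-negative and 75285 to 81248 CPM in the plasma-positive group, so the labelled cell type held. Of these 10 markers, edgeR called Csf1r (log2 change 0.28, adjusted p = 0.00489) and Olfml3 (0.37, adjusted p = 0.00647) higher in plasma-positive microglia, where the change of Ly6e, described below, was 0.38. The other markers were not called. Cx3cr1 was lower in every plasma-positive library than in any plasma-negative one (−0.11, edgeR adjusted p = 0.232), and Sall1 (0.0057) and Gpr34 (0.037) hardly changed. Markers of monocytes and neutrophils summed to 0.291 to 13.8 CPM in the plasma-negative group and to 0.110 to 523 CPM in the plasma-positive group. The highest value was that of plasma-positive library 3, where S100a8 reached 300 CPM and S100a9 171 CPM while Retnlg, a neutrophil marker, was at 0 in all 8 libraries. Oligodendrocyte markers summed to 158 to 230 CPM against 222 to 537 CPM, with the highest value in plasma-positive library 2. All 6 that were tested had a log2 change above 0 (median 1.26), and 0 were called. Cnp did not overlap between the groups (log2 change 0.71, edgeR adjusted p = 0.113). Astrocyte markers summed to 208 to 322 CPM against 199 to 258 CPM. Results that rest on plasma-positive libraries 2 and 3 are given with and without them below.

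Few of the 39 tested members changed past the threshold. Ifitm3 and Ly6e rose in plasma-positive microglia, and no member fell, at an adjusted p under 0.05 in edgeR's quasi-likelihood test with Benjamini-Hochberg adjustment over all genes tested. These 2 members are 5.13% of the 39, where 1.41% of all tested genes were called (0.844% higher and 0.565% lower). At an adjusted p under 0.1, which 3.07% of all genes reached, Cmpk2 joined them. At an unadjusted p under 0.05, 8 members were higher and 2 lower, 25.6% of the 39, against 13.8% of all genes (7.13% higher and 6.67% lower).

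The log2 change was above 0 for 28 of the 39 members (71.8%), against 50.4% of all tested genes, and its median was 0.38 against 0.0058. These values are a description and support no direction, since they include 10 members of few counts, all above 0. A gene of few counts passes the filter mainly on the libraries where it is high. For the other 29 members the change was above 0 in 18, with a median of 0.20, against 5771 of the 11222 tested genes with a mean of at least 50 counts. With scaling by library totals alone the count over the 39 was 25, and on log2(RPKM + 1), where RPKM is reads per unit of exon length and of library size, it was 32. For 9 members (23.1%) all 4 plasma-positive libraries lay above all 4 plasma-negative ones, and for 1 member, Ddx58, all 4 lay below. Among all tested genes these shares were 5.68% and 4.59%. The 9 higher members were Ifitm3, Isg15, Ifit2, Ifit3, Bst2, Ifi27l2a, Cmpk2, Ly6e and Ifnar2, of which Isg15 and Cmpk2 rested on few counts.

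**Figure D1:**
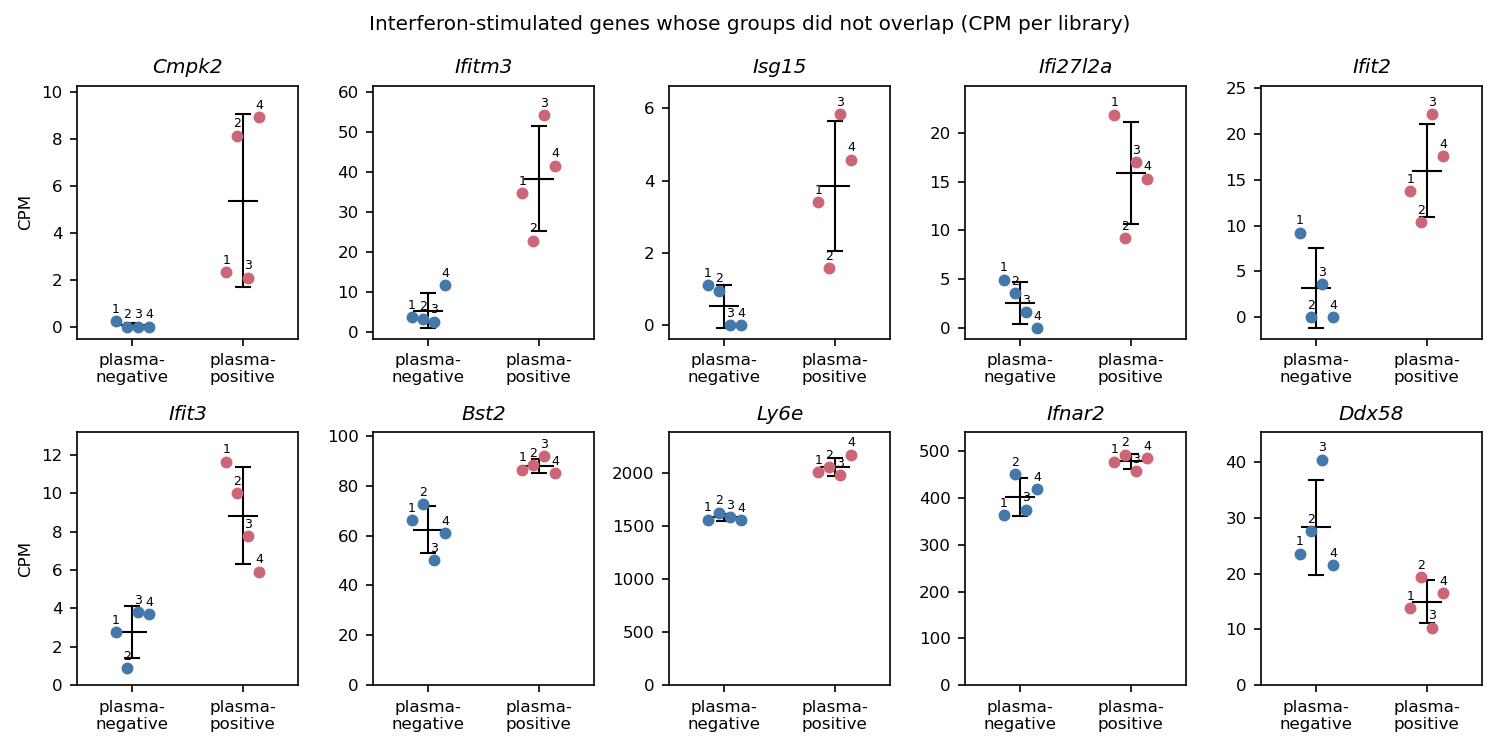
Level in CPM (vertical axis, linear) of the 10 members whose groups did not overlap, 1 panel per gene, with each library as a numbered point and the group mean and SD as black bars (n = 4 per group). The plasma-positive points lie above the plasma-negative points in 9 panels and below them for Ddx58, and the vertical scales range from a few CPM for Cmpk2 and Isg15 to about 2000 for Ly6e.

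The size of these values depended on how many counts a member had. A total of 14 of the 43 members in the table rested on few counts, with a mean under 50 over the 8 libraries, and 10 of those 14 were tested. All of these 10 had a log2 change above 0, with a median of 1.25 and a median standard error of 1.49, whereas the 2055 tested genes of the same count range had a median of −0.17. The 12 most abundant members had a median of 0.14. Over all genes in the same count range as these 12 the median was 0.066. A filter that asks for counts in 4 libraries passes a low gene on the libraries where it is high. For some of the 10 low-count members, such as Ifit1 and Rsad2, these included a plasma-negative library. The 10 are therefore given as values and not as support for a direction.

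Several members were absent from some libraries. Of the 43 members, 16 had 0 counts in at least 1 library, and 27 had more than 3 counts in all 8. The number of members above 3 counts was 28 to 35 in the plasma-negative libraries and 38 to 40 in the plasma-positive libraries. The members that made this difference were the 14 of few counts, Ifit2 and Ifi27l2a, so the numbers support no direction. Over all genes, those with at least 5 counts, a different threshold, numbered 11727 to 14518 and 13338 to 15545, which overlapped. After each library had been thinned to the smallest total, the members above 3 counts numbered 28 to 31 and 35 to 37. No such count was made over all genes after thinning, so the members and all genes are not compared on like terms. Plasma-positive library 3 held the highest level of 16 members, plasma-positive library 4 of 9 and plasma-positive library 1 of 6, while no other library held more than 3. Plasma-positive library 3 also had the highest sum of monocyte and neutrophil markers and the second largest total count, and their part in this was not tested.

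**Figure D2:**
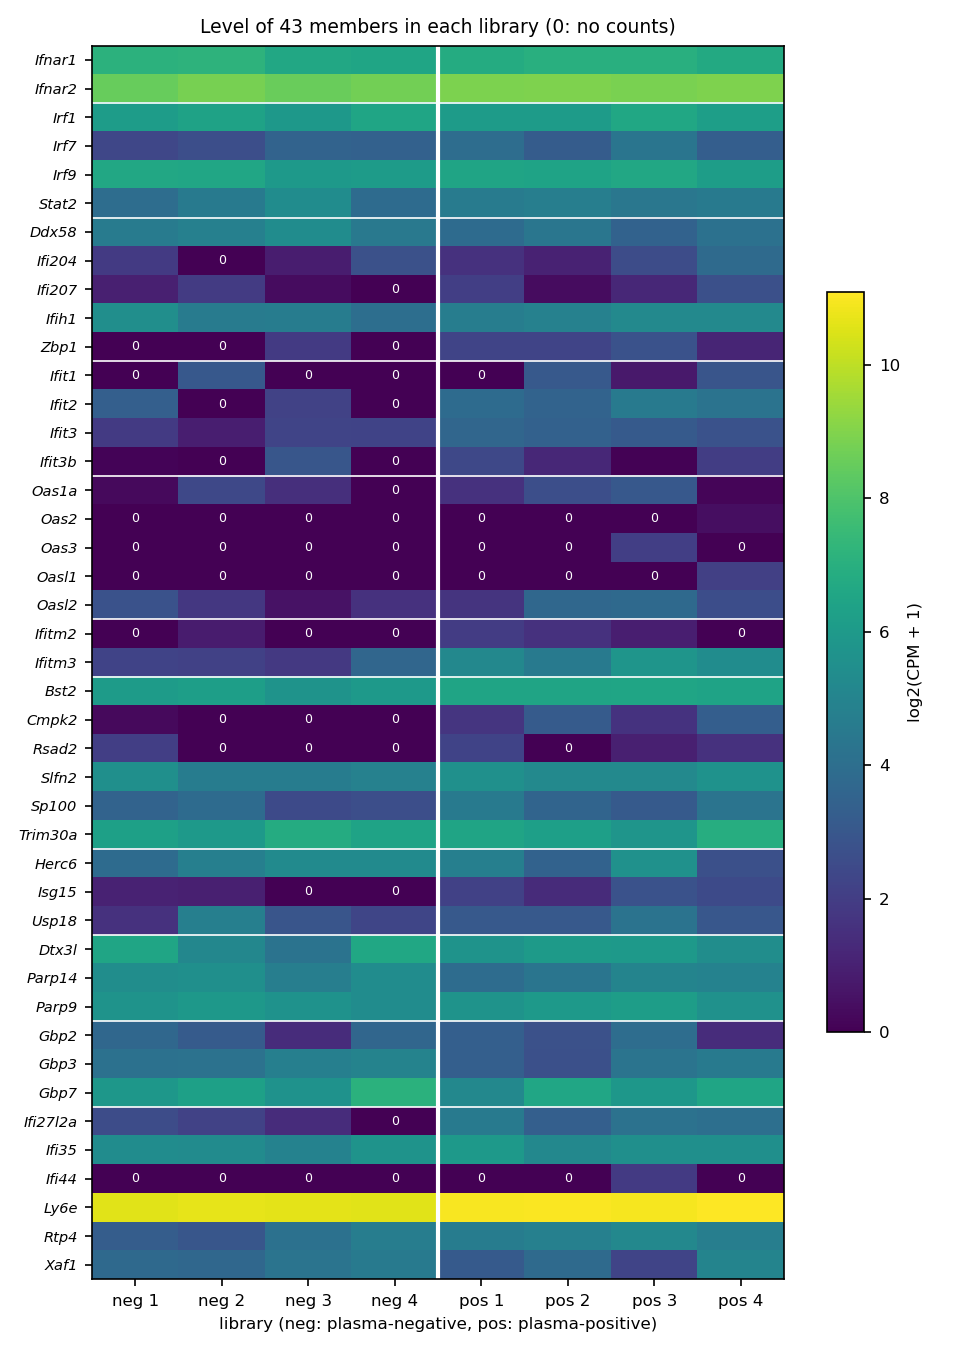
Heat map of log2(CPM + 1) for the 43 members in the table (vertical axis, grouped by role and separated by white lines) in each of the 8 libraries (horizontal axis), with 0 written where a library had no counts of a gene. Ly6e and Ifnar2 are bright in all columns, and the plasma-negative columns hold 7 to 15 zeros each against 2 to 5 in the plasma-positive columns.

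The ISRE core occurred in a larger share of the members' promoter windows than of all windows. It was searched as GAAA, any 2 bases and again GAAA, on both strands, from 250 bases before to 50 bases after each RefSeq transcript start on GRCm38.p6, the assembly behind mm10. A window was given for 34 of the 45 members, of which 18 (52.9%) held at least 1 core, against 3.99% of 27025 genes with a window. The GAS core TTCNNNGAA, a second element of interferon-induced promoters, was found for 9 of the 34 members (26.5%) and for 9.55% of all genes, and it shares the letters GAA with the ISRE core, so matches can overlap. A match is a stretch of letters and not a measured binding site.

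A set of 5 windows is printed, 5′ to 3′ on the gene's strand from 250 bases before to 30 bases after the start, with the ISRE cores in capitals. Isg15 (chr4:156200789-156201068, minus strand) is shown for its 3 cores in a row, which share bases and start 78, 72 and 66 bases before the transcript start. Ifitm3 (chr7:141010715-141010994, minus strand) is shown because it was called, and Ifit3 (chr19:34583279-34583558, plus strand) as a member with separated groups. Gbp7 (chr3:142530086-142530365, plus strand) has a core 53 bases before the start and no higher level in plasma-positive microglia, and Cmpk2 (chr12:26468965-26469244, plus strand) has separated groups and no core in this window.
Isg15: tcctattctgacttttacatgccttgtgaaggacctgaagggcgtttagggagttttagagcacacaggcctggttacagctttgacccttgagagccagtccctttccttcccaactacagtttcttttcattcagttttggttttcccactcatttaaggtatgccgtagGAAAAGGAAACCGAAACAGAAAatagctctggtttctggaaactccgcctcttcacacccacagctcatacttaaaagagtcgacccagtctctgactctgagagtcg
Ifitm3: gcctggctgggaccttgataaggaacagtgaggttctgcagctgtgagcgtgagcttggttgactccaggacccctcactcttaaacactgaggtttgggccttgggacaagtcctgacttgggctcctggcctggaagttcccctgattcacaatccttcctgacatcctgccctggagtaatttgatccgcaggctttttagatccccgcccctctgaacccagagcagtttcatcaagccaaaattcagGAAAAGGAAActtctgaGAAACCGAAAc
Ifit3: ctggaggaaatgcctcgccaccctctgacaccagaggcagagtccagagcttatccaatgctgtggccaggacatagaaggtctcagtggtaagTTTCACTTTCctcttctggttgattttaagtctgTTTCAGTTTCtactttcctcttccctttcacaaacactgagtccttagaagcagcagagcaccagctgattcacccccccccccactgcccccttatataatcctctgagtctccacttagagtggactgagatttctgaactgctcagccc
Gbp7: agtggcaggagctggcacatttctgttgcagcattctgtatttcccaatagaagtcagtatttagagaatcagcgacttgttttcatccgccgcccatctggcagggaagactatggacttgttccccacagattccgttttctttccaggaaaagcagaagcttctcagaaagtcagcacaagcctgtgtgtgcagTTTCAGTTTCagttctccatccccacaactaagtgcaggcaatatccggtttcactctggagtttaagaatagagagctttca
Cmpk2: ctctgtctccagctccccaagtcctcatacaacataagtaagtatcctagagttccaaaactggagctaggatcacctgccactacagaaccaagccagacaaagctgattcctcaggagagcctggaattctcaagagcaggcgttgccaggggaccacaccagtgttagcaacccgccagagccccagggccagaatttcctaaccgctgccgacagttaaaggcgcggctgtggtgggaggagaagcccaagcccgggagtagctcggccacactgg
The Ifitm3 cores begin 2 and 19 bases after the first transcribed base of the RefSeq model, and those of Ifit3 begin 156 and 122 bases before it. No window was given for Ly6e, so its promoter was not searched.

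Both receptor chains were expressed in every library, and neither passed the threshold. Ifnar1 (chr16:91485238-91507441), the chain that recruits Tyk2, was at 139, 144, 98.9 and 91.2 CPM in plasma-negative libraries 1 to 4 and at 110, 127, 126 and 107 CPM in plasma-positive libraries 1 to 4. Its groups overlapped, and its log2 change was −0.013 (SE 0.18, edgeR adjusted p = 0.985), with a 95% interval from −0.40 to 0.37. Ifnar2 (chr16:91372783-91405589), the chain that recruits Jak1, was at 363, 451, 376 and 420 CPM against 478, 493, 457 and 485 CPM. Every plasma-positive library lay above every plasma-negative library for Ifnar2, but the change of 0.25 (SE 0.094, edgeR adjusted p = 0.252) did not pass the threshold. A neighbouring gene model on the same strand overlaps 9.46% of the Ifnar2 exon bases.

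The transcription factors did not separate the groups. Irf9, the DNA-binding partner of Stat2, averaged 80.7 ± 17.5 CPM in plasma-negative and 85.6 ± 11.5 CPM in plasma-positive libraries (SD, n = 4 each), a log2 change of 0.082 (SE 0.19, edgeR adjusted p = 0.913). Irf1, an early interferon-induced activator, averaged 75.2 ± 13.9 against 75.7 ± 13.4 CPM, with a change of 0.014 (edgeR adjusted p = 0.985) and a 95% interval from −0.41 to 0.44. Stat2 was at 14.7, 22.4, 41.3 and 13.8 CPM in the plasma-negative libraries and at 23.7, 25.7, 20.3 and 22.01 CPM in the plasma-positive ones. The mean levels of Stat2 were alike (23.0 ± 12.8 and 22.9 ± 2.32 CPM), and its plasma-negative values spread more widely, around a high value in library 3. The signs of Irf1, Irf9 and Stat2 turned under other scalings, so no direction is given for them. Irf7, which amplifies interferon production, had a change of 0.77 (edgeR adjusted p = 0.566), from 7.46 ± 3.15 to 12.6 ± 4.84 CPM.

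The sensors of nucleic acid went in different directions, and none passed the threshold. Ddx58, which encodes the RNA sensor RIG-I, was at 23.6, 27.6, 40.5 and 21.5 CPM in plasma-negative libraries and at 13.8, 19.4, 10.3 and 16.5 CPM in plasma-positive libraries. It was the member with every plasma-positive library below every plasma-negative one, and its change of −0.92 (SE 0.34, edgeR adjusted p = 0.239) did not pass. Ifih1, which encodes the related RNA sensor MDA5, was at 43.9, 23.4, 23.8 and 15.1 CPM against 25.2, 28.1, 35.9 and 35.7 CPM, a change of 0.22 (edgeR adjusted p = 0.848). Its groups overlapped over most of their range. The DNA and Z-form nucleic acid sensors Zbp1, Ifi204 and Ifi207 rested on few counts, with changes of 1.23 to 2.38 and edgeR adjusted p-values of at least 0.560. Zbp1 had counts in 1 of 4 plasma-negative libraries (library 3) and in all 4 plasma-positive ones.

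Ifitm3 (chr7:141009586-141010770, minus strand), whose membrane protein blocks the fusion of viruses in endosomes, changed most among the members past the threshold. Its level was 3.67, 3.40, 2.62 and 11.8 CPM in plasma-negative libraries 1 to 4 and 34.7, 22.8, 54.2 and 41.6 CPM in plasma-positive libraries 1 to 4. The lowest plasma-positive library was above the highest plasma-negative one, plasma-negative library 4, which was the shallowest and gave 35 counts of Ifitm3. The log2 change was 2.94 (SE 0.52, edgeR adjusted p = 0.0196), a 7.67-fold rise, with a 95% interval from 1.81 to 4.07. Without plasma-negative library 4 the change was 3.57 (edgeR adjusted p = 0.00322). The call was lost when any 1 of plasma-negative libraries 1 to 3 or plasma-positive libraries 1, 3 and 4 was left out (edgeR adjusted p from 0.0591 to 0.0660, change from 2.70 to 2.98).

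A share of 10.02% of the 50-base stretches of Ifitm3 exons also occurs in another gene, mostly Ifitm1, so some of its reads may belong to that copy. Ifitm2, its neighbour and paralog, had 13 counts in 1 plasma-negative library and 18 to 40 counts in 3 plasma-positive libraries, and 0 in the other 4. Its change of 2.65 (edgeR adjusted p = 0.544) is uncertain as well, since 48.5% of its 50-base stretches recur in an overlapping gene model.

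The ISG15 system gave low values. Isg15, the ubiquitin-like protein that is attached to newly made proteins during an interferon response, was at 1.11, 0.944, 0 and 0 CPM in plasma-negative libraries and at 3.41, 1.58, 5.84 and 4.58 CPM in plasma-positive libraries. The groups did not overlap, and with a mean of 32.2 counts the change of 2.79 (SE 1.28, edgeR adjusted p = 0.364) did not pass. Usp18, the protease that removes ISG15 and restrains the receptor, averaged 9.87 ± 11.4 and 9.94 ± 5.15 CPM, with its highest value, 26.8 CPM, in plasma-negative library 2. Herc6, the mouse ligase for ISG15, ranged from 13.5 to 38.7 CPM in plasma-negative and from 5.47 to 47.1 CPM in plasma-positive libraries, so the plasma-positive group spanned the whole plasma-negative range.

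The IFIT genes, whose proteins bind viral RNA and block its translation, all had a log2 change above 0, and none passed the threshold. Ifit2 was at 9.21, 0, 3.61 and 0 CPM against 13.8, 10.4, 22.2 and 17.5 CPM, a change of 2.25 (SE 1.15, edgeR adjusted p = 0.428). Ifit3 was at 2.75, 0.881, 3.78 and 3.70 CPM against 11.7, 10.02, 7.76 and 5.92 CPM, a change of 1.68 (SE 0.67, edgeR adjusted p = 0.285). Both genes had every plasma-positive library above every plasma-negative one. Ifit3 shares 51.2% of its 50-base stretches with its near-copy, Ifit3b, so the split of reads between them is uncertain. Ifit3b itself had 119 counts in plasma-negative library 3 and at most 39 in any other library, and Ifit1 had 114 counts in plasma-negative library 2 and 0 in the other 3 plasma-negative libraries, against 0, 147, 14 and 59 counts in the plasma-positive ones.

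The genes of the oligoadenylate synthetases and their relatives, which act against viral RNA in the cytosol, had low levels, and 3 of the 5 had counts in a single library. Oasl2 was at 5.84, 2.46, 0.466 and 2.02 CPM against 2.20, 12.1, 12.7 and 5.14 CPM (change 1.56, edgeR adjusted p = 0.473), and Oas1a had 0 to 69 counts against 1 to 144 counts. A share of 57.6% of the 50-base stretches of Oas1a recurs in other genes, mostly Oas1g, so its counts are uncertain. Oasl1 had 29 counts in plasma-positive library 4, Oas2 had 3 counts there, and Oas3 had 63 counts in plasma-positive library 3, with 0 in every other library. At 0 counts, levels up to 1.01 CPM in the shallowest library and 0.133 CPM in the deepest would go unseen, since 3 counts were taken as the limit that a count of 0 allows. These limits cover counting error only, as amplified reads that carry no molecular identifier cannot be counted as separate molecules.

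Among the restriction factors, Cmpk2 and Bst2 separated the groups. Cmpk2, a mitochondrial nucleotide kinase, had 5, 0, 0 and 0 counts in plasma-negative libraries and 21, 160, 41 and 80 counts in plasma-positive libraries, which is 0.221, 0, 0 and 0 CPM against 2.31, 8.13, 2.08 and 8.94 CPM. The groups lay far apart relative to their counts, but the change of 6.08 (SE 1.40) missed the threshold (edgeR adjusted p = 0.0571), and its size rests on 5 plasma-negative counts. On the scale of log2(RPKM + 1) the same change was 0.94. DESeq2, with 3.2% of all genes called higher, called Cmpk2 (adjusted p = 0.00026) and Ifi27l2a besides Ifitm3 and Ly6e.

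Bst2, or tetherin, which holds budding virus at the cell surface, was at 66.1, 72.6, 50.1 and 60.9 CPM against 86.6, 88.3, 91.9 and 85.1 CPM. The plasma-positive values lay within a narrow band above all plasma-negative values, and the change of 0.49 (SE 0.17, edgeR adjusted p = 0.199) did not pass. Slfn2, which guards immune cell quiescence, was at 30.5 ± 10.1 against 42.0 ± 6.47 CPM (SD, n = 4 each), with overlapping groups and a change of 0.46 (edgeR adjusted p = 0.511). Trim30a, a regulator of innate signalling, averaged 84.3 ± 22.1 and 83.1 ± 26.6 CPM, and the sign of its change turned with the scaling. Rsad2 (viperin, an inhibitor of viral RNA synthesis) had 72 counts in plasma-negative library 1 and 0 in the other 3, against 33, 0, 19 and 18 counts in the plasma-positive libraries. Sp100, a nuclear body protein, had a change of 0.77 (edgeR adjusted p = 0.577).

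Ly6e (chr15:74955051-74959905, plus strand), a surface protein anchored in the membrane by a lipid, was the most abundant member and the one with the smallest standard error of its log2 change. It was at 1557, 1621, 1582 and 1552 CPM in plasma-negative libraries and at 2003, 2050, 1976 and 2169 CPM in plasma-positive libraries. The groups lay far apart compared with their spread (1578 ± 31.5 and 2050 ± 85.5 CPM, SD, n = 4 each). The log2 change was 0.38 (SE 0.055, edgeR adjusted p = 0.00732), a 1.299-fold rise, and the call held when each library was left out in turn (adjusted p from 0.0149 to 0.0339). With a correction for exon length in each library, after which 0.392% of all genes were called higher, the change was 0.30 and no longer passed (edgeR adjusted p = 0.0619), and Ifitm3 was the called member. On log2(RPKM + 1), where limma called 0.113% of all genes higher, Ly6e had an adjusted p of 0.153 and Ifitm3 one of 0.0372. On log2(RPKM + 0.1), with 0.0904% of genes called higher, neither passed. The change of Ly6e was 0.50 on both scales and that of Ifitm3 2.90 and 3.14, where the median over all genes was 0.11 and 0.16.

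Ifi27l2a, a small interferon-induced membrane protein, was at 4.96, 3.59, 1.63 and 0 CPM against 21.9, 9.20, 17.003 and 15.3 CPM. The lowest plasma-positive value was above the highest plasma-negative value, with a change of 2.57 (SE 0.80, edgeR adjusted p = 0.155). Rtp4, a chaperone that interferon induces, was at 8.68, 6.80, 16.5 and 24.9 CPM against 24.1, 27.2, 35.3 and 26.0 CPM (change 1.01, SE 0.42, edgeR adjusted p = 0.311), and its groups overlapped through plasma-negative library 4. Ifi35 was at 40.0 ± 8.66 against 46.7 ± 11.4 CPM (change 0.23, edgeR adjusted p = 0.764). Part of its exon sequence, 16.8%, overlaps an antisense gene model. Xaf1 ranged from 11.96 to 21.9 CPM in plasma-negative and from 3.86 to 31.4 CPM in plasma-positive libraries, and Ifi44 had its 53 counts in plasma-positive library 3.

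The ADP-ribosyltransferases and their partner showed no shared change. Parp14 was at 42.5, 45.2, 25.4 and 40.7 CPM against 14.3, 18.9, 30.7 and 29.6 CPM, with a change of −0.72 (SE 0.32, edgeR adjusted p = 0.344). Its groups overlapped through plasma-negative library 3. Parp9 averaged 49.9 ± 7.38 against 57.5 ± 9.92 CPM (change 0.20, edgeR adjusted p = 0.743), and its ubiquitin ligase partner Dtx3l 59.6 ± 39.5 against 54.6 ± 9.79 CPM. Dtx3l spread from 17.8 to 95.2 CPM in the plasma-negative group alone. Parp9 and Dtx3l lie head to head and overlap in 9.40% and 8.0% of their exon bases, so their reads cannot be fully told apart.

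The guanylate-binding proteins, GTPases that interferon gamma induces strongly and that attack vacuoles holding microbes, had log2 changes from −0.73 to −0.086, and none passed. Gbp7 was at 57.5, 77.0, 48.5 and 136 CPM against 35.1, 92.0, 57.4 and 91.6 CPM (change −0.19, edgeR adjusted p = 0.881), and Gbp3 at 16.7, 17.3, 26.7 and 29.9 CPM against 9.24, 5.59, 18.1 and 21.7 CPM (change −0.73, SE 0.46, edgeR adjusted p = 0.537). Gbp2 averaged 8.35 ± 4.83 and 7.81 ± 5.49 CPM. The plasma-positive and plasma-negative values of all 3 overlapped. Each of the 3 has an ISRE core in a promoter window, though 1 of the 2 windows of Gbp3 holds none.

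**Figure D3:**
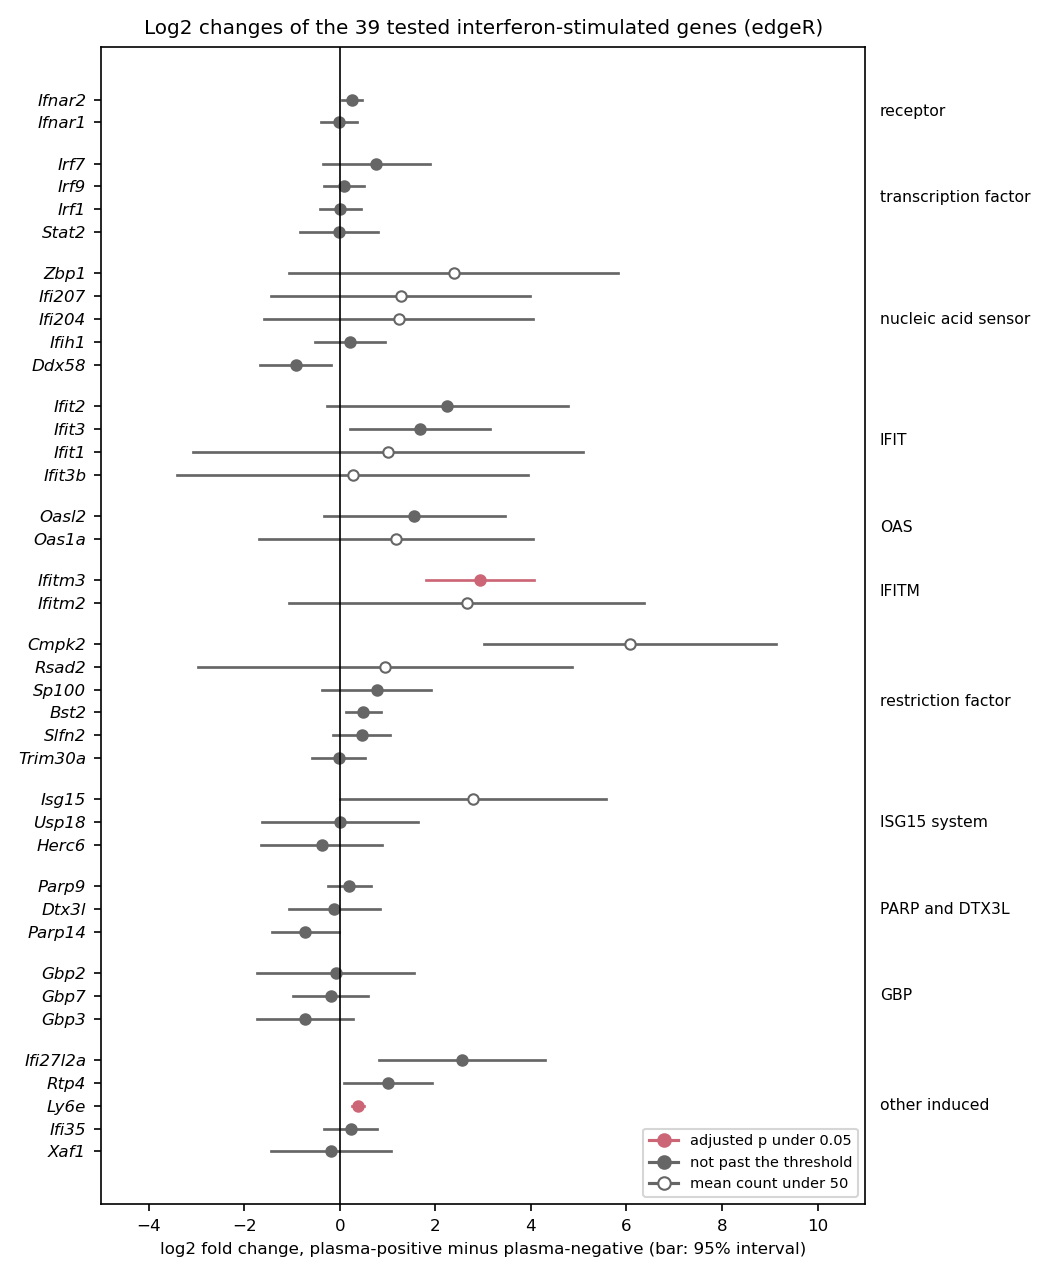
Log2 fold change, plasma-positive minus plasma-negative (horizontal axis), of the 39 tested members with 95% intervals from edgeR, grouped by role; red marks an adjusted p under 0.05 and open circles a mean under 50 counts. The open circles lie to the right of 0 with wide intervals, while abundant members such as Ly6e, Ifnar1 and Irf9 have narrow intervals near 0.

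Per unit of length, a few members made up most of the signal. Ly6e stood first with a mean of 305 RPKM in plasma-negative and 432 RPKM in plasma-positive libraries, 50.6% and 48.8% of the members' summed RPKM. Ifnar2 followed at 88.4 and 115 RPKM, and Bst2 at 50.5 and 77.7 RPKM. Ifitm3 was at 5.84 and 45.0 RPKM, so its place among the members differed between the groups. The neighbours Ifnar1 (14.5 and 15.8 RPKM) and Irf1 (13.8 and 15.2 RPKM) did not differ beyond their spread.

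The summed level of the 43 members was higher in plasma-positive microglia, by a ratio that differed between the deposited scales. It was 2895, 3022, 2790 and 2979 CPM in plasma-negative and 3474, 3551, 3578 and 3744 CPM in plasma-positive libraries, a ratio of means of 1.23. Without Ly6e the sums were 1344 ± 97.4 and 1537 ± 61.1 CPM (SD, n = 4 each), a ratio of 1.14, and the groups lay just apart (at most 1426 and at least 1472 CPM). Scaled by library totals alone, the same sums without Ly6e overlapped, with a ratio of 1.06. In RPKM the sums were 603 ± 30.2 and 885 ± 18.0 (SD, n = 4 each), a ratio of 1.47, and without Ly6e they were 298 ± 27.9 and 453 ± 26.2, a ratio of 1.52.

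Plasma-positive library 2 was highest in neuronal and oligodendrocyte markers, and plasma-positive library 3 in monocyte and neutrophil markers. Leaving out libraries 2 and 3 left 2 plasma-positive libraries and ended the calls of Ifitm3 and Ly6e. Ifitm3 then had a change of 2.90 (edgeR adjusted p = 0.157) and Ly6e one of 0.41 (edgeR adjusted p = 0.0878), while 0.0775% of all genes were called higher. The median change of the members was 0.44 without these libraries. Neuronal markers summed to 2.69 to 34.0 CPM in plasma-negative and to 3.10 to 270 CPM in plasma-positive libraries, led by Snap25 at 124 CPM in plasma-positive library 2. Plasma-positive library 1, which was kept, had 66.8 CPM of neuronal and 307 CPM of oligodendrocyte markers, each above every plasma-negative library. The part of these transcripts in the members' levels was not tested.

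Ifitm3 and Ly6e are also expressed by endothelial cells and by macrophages of the brain's borders. Endothelial markers summed to 27.3 to 52.7 CPM in plasma-negative and 21.6 to 65.1 CPM in plasma-positive libraries. Pecam1 and Kdr, the tested endothelial markers, had log2 changes of 0.31 and −1.68 (edgeR adjusted p = 0.810 and 0.594), Cldn5 was at 0 in every plasma-negative library and at 0 to 4.63 CPM in the plasma-positive ones, and Tek was at 0 in all. The other 5 (Cdh5, Flt1, Ly6c1, Slco1a4 and Itm2a) had group means of 0 to 0.0841 CPM in plasma-negative and 0.269 to 0.889 CPM in plasma-positive libraries. Border macrophage markers summed to 0 to 9.43 and 1.42 to 16.1 CPM, and Cd163, Lyve1, F13a1 and Cd209f were at 0 in all 8 libraries. Mrc1, the border macrophage marker that was tested, was at 1.90, 0, 0 and 2.36 CPM against 1.76, 12.2, 1.42 and 15.3 CPM, a log2 change of 2.93 (SE 1.51, edgeR adjusted p = 0.429). Clec4n had 100 counts in plasma-negative library 3 and 0 elsewhere, Pf4 had 62 counts in that library and 13 in plasma-positive library 2, and Ms4a7 had 7 in plasma-positive library 4. Lymphocyte markers summed to at most 0.0886 and 1.17 CPM, with 8 of the 11 at 0 throughout, and dendritic cell markers to 6.06 to 16.2 and 4.36 to 8.22 CPM. The part of endothelial and border macrophage RNA in the Ifitm3 and Ly6e differences was not tested.

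Of 26 genes listed for interferons, gamma receptors, kinases, transcription factors, adaptors and negative regulators, 25 were in the table and 22 were tested, and edgeR called 0, where it called 1.41% of all genes. At an unadjusted p under 0.05 there was 1 gene of the list, against 13.8% of all genes, and DESeq2 called 1 higher, against 3.2%. That gene was Dhx58, which encodes the RIG-I-like regulator LGP2, at 15.1, 8.81, 4.89 and 10.8 CPM against 39.3, 24.5, 30.4 and 20.3 CPM (change 1.53, SE 0.41, edgeR adjusted p = 0.0987). The interferon genes Ifna4, Ifnb1 and Ifng had 0 counts in all 8 libraries. Tyk2 averaged 50.05 ± 8.58 against 38.9 ± 9.89 CPM (change −0.36, edgeR adjusted p = 0.593) and Jak1 221 ± 25.8 against 218 ± 13.8 CPM. The median change over the 22 genes was 0.11.

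A list of 37 further interferon-induced genes held 2 that rose and 0 that fell. Of these, 28 were tested, with a median change of 0.41 and 17 changes above 0. Over all tested genes, 0.844% were called higher, 0.565% lower, and 50.4% had a change above 0. The list was chosen with earlier results of these data known, so its counts support no direction. Lgals3bp, a secreted galectin-binding glycoprotein, was at 187, 194, 137 and 183 CPM against 321, 332, 322 and 354 CPM (change 0.92, SE 0.13, edgeR adjusted p = 0.00571), and its call held without any 1 library. The call was lost without plasma-positive libraries 2 and 3 (edgeR adjusted p = 0.0878) and on log2(RPKM + 1) and log2(RPKM + 0.1) (limma adjusted p = 0.0653 and 0.106), and with length correction and replicate block together (edgeR adjusted p = 0.0574). The change of Lgals3bp ranged from 0.81 to 1.06 over the settings. Shisa5, an endoplasmic reticulum protein, was at 293, 342, 363 and 378 CPM against 469, 471, 523 and 487 CPM (change 0.51, SE 0.10, edgeR adjusted p = 0.0318). Its call was lost in 7 of the 8 fits with 1 library left out, where plasma-negative library 4 was the exception, and without plasma-positive libraries 2 and 3 (edgeR adjusted p = 0.256). It was also lost with library totals only, the replicate block and either length correction in edgeR, and with limma on both RPKM scales (adjusted p from 0.0659 to 0.190). The change of Shisa5 ranged from 0.39 to 0.63 over the settings.

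**Figure D4:**
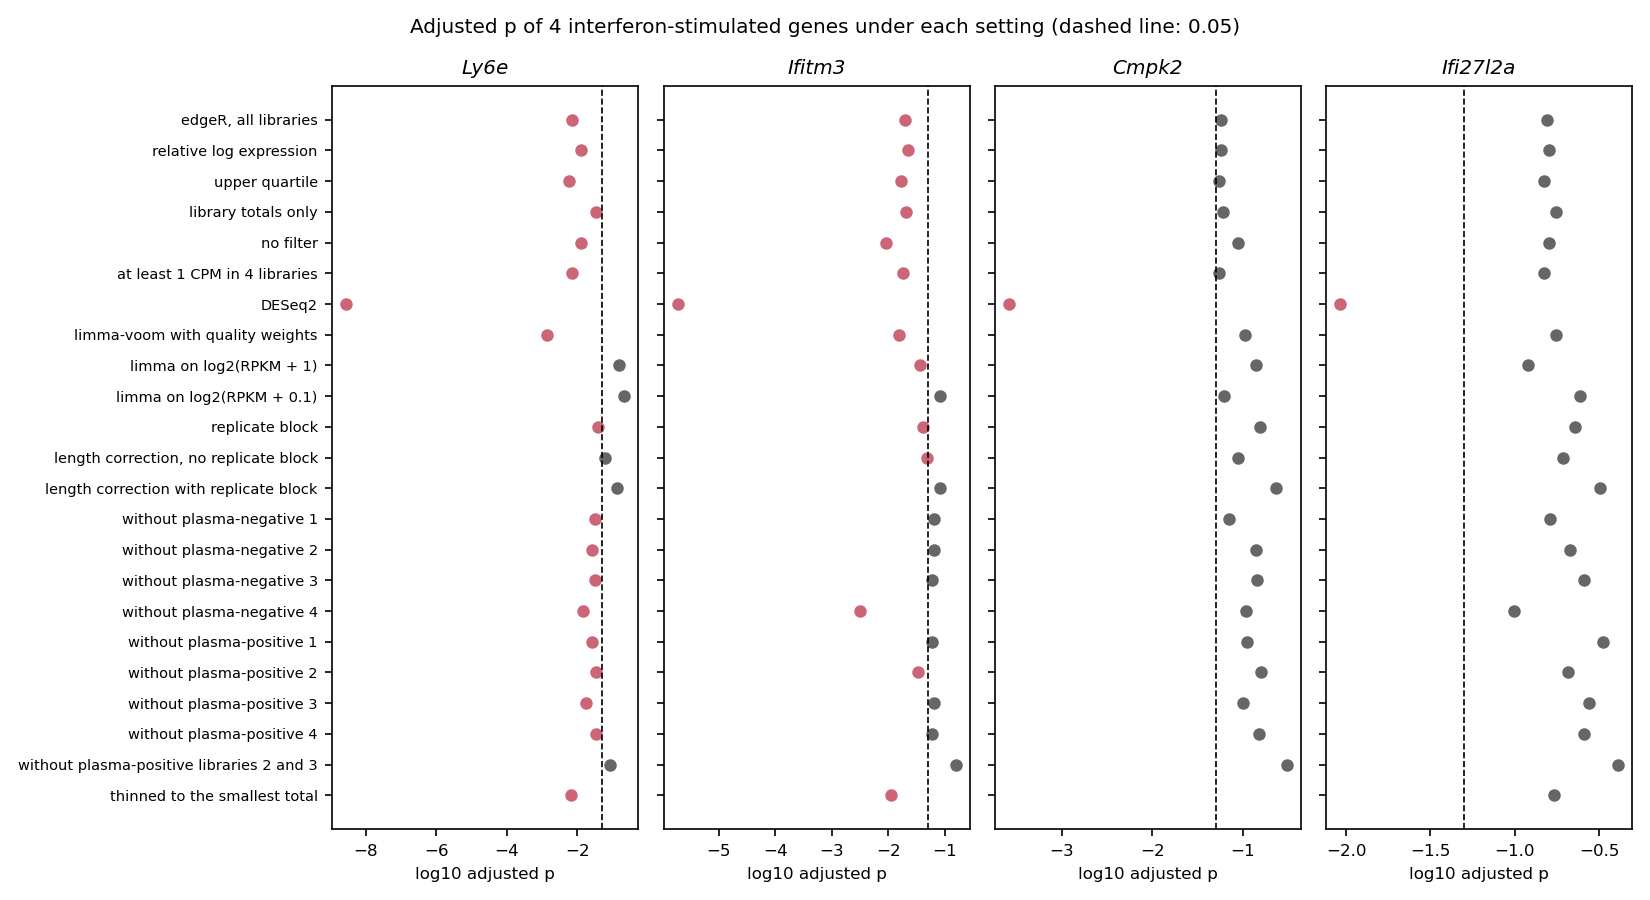
Log10 of the adjusted p (horizontal axis) of Ly6e, Ifitm3, Cmpk2 and Ifi27l2a under each normalization, test and left-out library (vertical axis), with a dashed line at 0.05 and red points below it. Ly6e lies left of the line in every fit with 1 library left out, Ifitm3 in 2 of those 8, and Cmpk2 and Ifi27l2a lie left of it for DESeq2 alone.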

How the data were processed

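RNA from sorted hypothalamic microglia was measured in 8 Smart-seq2 libraries, 4 per group, grouped by their titles. The authors deposited raw read counts for each gene and, in a second table, RPKM values, which divide those counts by exon length and library size. Column names in both tables say that only the top hits of the alignments were used. The submitters' processing notes name bcl2fastq, Trim Galore, STAR, HTSeq and build mm10. The annotation, strand and multi-mapping treatment are not given in the sources used here. A set of 16 further per-library columns (standard deviations) was not used.

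Counts were tested in edgeR 4.0.16 (R 4.3.3) by the quasi-likelihood test with TMM scaling and the filterByExpr filter, over all 13277 genes passing it, with no covariate; a member was called at an adjusted p under 0.05. CPM values use TMM-scaled totals. Alternatives used limma 3.58.1 and DESeq2 1.42.0, other scalings and filters, RPKM with pseudocounts of 1 and 0.1, exon length correction, a replicate block, thinning, and each library left out. Fullest values were given for members called, members of at least 20 CPM in either group, both receptors, and members with no overlap between groups. Other members were described more briefly, and those singled out among them were chosen after their values were seen. Members and lists were chosen with earlier results of these data known. Scripts were tested on simulated data. Exon lengths, overlaps and shared 50-base stretches came from GENCODE M21, where 35546 of the 35583 gene identifiers were found, and promoter windows from RefSeq. Mx1, Mx2 and Mb21d1 are not analysed here, and 1 gene of the pathway list is not reported here. Total counts of 2963094 to 21422738 per library limit precision for genes of few counts.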

Additional observations from a re-analysis of the deposited data

Results flagged for a closer look

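In the plasma-negative group, Ifitm3 was at 11.8 CPM (35 counts) in library 4, and the nearest other value was 3.67 CPM. Cmpk2 was at 0.221 CPM (5 counts) in plasma-negative library 1 and at 0 in the other 3. In each case the gap to the nearest library, as a share of the group's range, was above Dixon's critical value of 0.829 for 4 samples. For Cmpk2 the other 3 values are 0, so any count above 0 meets this, and it says nothing of that library. These were 2 of 64 gene and group combinations examined, and chance alone gives about 1 in 20.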

How the results depend on the processing

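Of the 2 members called higher, DESeq2 gave 4, limma on log2(RPKM + 1) 1, on log2(RPKM + 0.1) 0, length correction 1, length correction with the replicate block 0, and the fit without plasma-positive libraries 2 and 3, chosen after seeing the data, 0. With each library left out the count was 1 to 2. The share of all genes called higher moved as well, from 0.844% in the main fit to 3.2% in DESeq2. It was 0.113% and 0.0904% on the RPKM scales, 0.392% with length correction and 0.0979% with length correction and block. With library totals only it was 0.482%, with the block 0.392%, and without plasma-positive libraries 2 and 3 0.0775%. With each library left out it was 0.295% to 0.901%. The pathway list, with 0 called, had 1 in DESeq2 and 1 at an adjusted p under 0.1, which 3.07% of all genes reached. The further interferon-induced genes, with 2 called, had 1 with library totals only, 5 in DESeq2, 0 on either RPKM scale, 1 with the replicate block, 1 with length correction, 0 with length correction and block, 0 without plasma-positive libraries 2 and 3, and 1 to 2 with each library left out. The members' median change of 0.38 was 0.26 with library totals only, 0.50 with no filter, 0.26 at 1 CPM or more in 4 libraries, 0.51 with limma-voom, 0.63 on log2(RPKM + 0.1), 0.51 with the block, 0.23 after thinning, and 0.28 to 0.52 with each library left out. After thinning 30 members were tested, and Isg15 and Cmpk2, left out by the filter, have no value there. The median over all genes moved to −0.11 with library totals only and to 0.11 and 0.16 on the RPKM scales.

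Whether libraries with the same replicate number came from the same animal is not known. Their deviations from the group means correlated at 0.0109 to 0.0315, and those of different numbers at −0.0056 on average. Correlations this weak neither show nor exclude a shared animal. Blocking on the number left 52 higher and 22 lower calls over all genes, against 112 and 75 without the block. Ifitm3 (adjusted p = 0.0419) and Ly6e (adjusted p = 0.0399) passed with the block in edgeR, and not with block and length correction (0.0822 and 0.132).

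Small changes turned in sign, and their cause was not tested. Irf1 was −0.010 with relative log expression, −0.098 with library totals, −0.0074 in DESeq2, −0.058 with length correction and −0.058 with length correction and block. Irf9 was −0.035 with library totals and −0.0060 after thinning. Stat2 was 0.0020 with upper quartile scaling, 0.10 with limma-voom, 0.17 and 0.25 on the RPKM scales, 0.13 with the block, 0.025 with length correction and 0.18 with both. Trim30a was 0.0011 with upper quartile scaling, 0.080 and 0.084 on the RPKM scales and 0.0077 after thinning. Dtx3l was 0.21 with limma-voom, 0.21 and 0.29 on the RPKM scales, 0.17 with the block and 0.20 with length correction and block. Ifnar1 was 0.0086 with upper quartile scaling, 0.13 and 0.14 on the RPKM scales, 0.014 with the block, 0.031 with length correction and 0.056 with both. Jak1 was 0.0036 with upper quartile scaling, 0.11 and 0.11 on the RPKM scales, 0.083 with length correction and 0.089 with both. Without plasma-positive libraries 2 and 3, Irf1 was −0.088, Irf9 −0.023, Trim30a 0.28 and Parp9 −0.0062.
With each library left out, the changes ranged from −0.11 to 0.11 for Irf1, −0.016 to 0.19 for Irf9, −0.19 to 0.43 for Stat2, −0.23 to 0.16 for Trim30a, −0.42 to 0.20 for Dtx3l, −0.37 to 0.18 for Gbp7, −0.11 to 0.098 for Ifnar1 and −0.092 to 0.042 for Jak1.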

Other observations

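A few genes of the further interferon-induced list were seen in some plasma-positive libraries and in no plasma-negative library. They were chosen for mention after their values were seen, and none passed the filter on low counts. Cxcl10, a chemokine that draws T cells, was at 0.110, 4.73, 0 and 16.2 CPM in plasma-positive libraries 1 to 4, from 1, 93, 0 and 145 counts. Cxcl9, a related chemokine, was at 0.220, 0, 20.96 and 0 CPM, from 2, 0, 413 and 0 counts. Iigp1, a GTPase that acts on vacuoles of parasites, was at 0, 5.24, 1.98 and 0.335 CPM. All 3 were at 0 in the 4 plasma-negative libraries, and the libraries where they were high differed from gene to gene.

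The immunoproteasome subunit Psmb8 was at 201, 164, 193 and 190 CPM in plasma-negative and 269, 230, 254 and 260 CPM in plasma-positive libraries, a log2 change of 0.44 with no overlap between the groups (edgeR adjusted p = 0.0847). Lgals9, a galectin, was at 264, 259, 246 and 292 CPM against 313, 337, 461 and 332 CPM, also without overlap (log2 change 0.44, edgeR adjusted p = 0.136). Tap1, the peptide transporter, averaged 99.1 ± 3.84 against 79.6 ± 11.35 CPM (log2 change −0.32, edgeR adjusted p = 0.395), and Psmb9 47.5 ± 4.90 against 46.6 ± 15.2 CPM. Neither Psmb8 nor Lgals9 passed the threshold in edgeR.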
